A study of Homo sapiens with 16 samples.

Results

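DLD, the shared E3 subunit of the mitochondrial alpha-ketoacid dehydrogenase complexes, and 9 genes for the other catalytic subunits were followed across 16 sequenced RISC-trap pulldowns from HEK 293 cells. The 10 genes are DLD, DLAT, PDHA1, PDHB, PDHX, OGDH, DLST, BCKDHA, BCKDHB and DBT. They were taken by symbol from a count table of 19077 entries, where each has 1 RefSeq mRNA entry, so isoforms were not separated. All 10 passed the filter on low counts. The set was drawn up with earlier results of these libraries known, and DLD, which heads it, was taken as selected on its own measured level (CPM) in these libraries, that with mir550-3p above all. Its levels and ratios are therefore a description with no test.

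HEK 293 is an established human line that came from embryonic kidney. In the RISC trap an altered GW182 (the TNRC6A protein) blocks the decay of target mRNAs, which stay on the silencing complex (RISC) of a chosen microRNA (miRNA) and are pulled down. The mir550-3p, mir1271-5p, mir1301-3p, mir1180-3p, mir1260a-5p and mir3613-5p pulldowns were each sequenced in 2 libraries. The mir124-3p pulldown was sequenced in 1 library with Solid in its title and 3 with Illumina. All share the cell line, and the labels name no other treatment, no dose of miRNA, no library without a miRNA and no input RNA. They also do not say whether the libraries of a miRNA came from separate cultures, so p-values measure the spread between these libraries, which may be technical. More of an mRNA in the cells and a larger share of it held by RISC cannot be told apart in such bulk samples, and neither can fewer cells and less RNA per cell.

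The 3 complexes feed carbon into the mitochondrial citric acid (TCA) cycle and are built alike. An E1 enzyme removes carbon dioxide from the substrate with thiamine pyrophosphate, an E2 enzyme passes the remaining acyl group to coenzyme A on a swinging lipoyl arm, and DLD (E3) reoxidises that arm and makes NADH. Pyruvate dehydrogenase consists of PDHA1 and PDHB (E1), DLAT (E2) and PDHX, which anchors DLD to the core. The complex for 2-oxoglutarate uses OGDH (E1) and DLST (E2), and that for branched-chain ketoacids uses BCKDHA and BCKDHB (E1) and DBT (E2). A miRNA finds its targets mainly through bases 2 to 8, the seed.

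The mature sequences are shown because every comparison below is between pulldowns with these miRNAs. They come from RefSeq (GRCh38.p14), run 5′ to 3′, and have the seed in capitals. RefSeq held 6 of the 7 miRNAs, and mir124-3p is named only.
mir550-3p (hsa-miR-550a-3p): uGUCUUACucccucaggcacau
mir1271-5p (hsa-miR-1271-5p): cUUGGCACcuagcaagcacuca
mir1301-3p (hsa-miR-1301-3p): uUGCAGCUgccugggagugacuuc
mir1180-3p (hsa-miR-1180-3p): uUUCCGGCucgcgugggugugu
mir1260a-5p (hsa-miR-1260a): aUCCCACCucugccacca
mir3613-5p (hsa-miR-3613-5p): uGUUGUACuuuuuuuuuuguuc
The 6 seeds are all different. The library names in the descriptions give the 550a form for mir550-3p. RefSeq lists hsa-miR-550a-3p at chr7:29680748-29680769 on the minus strand (MIR550A3) and at chr7:32733041-32733062 on the plus strand (MIR550A2). It lists hsa-miR-1271-5p at chr5:176367960-176367981 on the plus strand and hsa-miR-1301-3p at chr2:25328651-25328674 on the minus strand. Target sites in the mRNAs of the 10 genes were not searched here.

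Total counts lay between 7612758 and 26527365 per library, and 3 counts, the limit behind a count of 0, come to between 0.113 and 0.394 CPM (counts scaled to a common library total). This covers counting error alone. The labelled cell line was checked with 9 genes typical of HEK 293 or of epithelial cells, whose summed level was between 1251 and 2223 CPM in the 12 libraries of the 6 miRNAs. Liver markers summed to 2.204 to 7.275 CPM and blood markers to 5.197 to 12.08 CPM there. The chi-square per degree of freedom between the libraries of a miRNA was between 34.4 and 79.1 for the 6 miRNAs, so no library was a copy of another. Illumina replicate 2 stood apart from replicates 1 and 3 (77 and 87.7, against 6.45 between those). All levels below are CPM scaled by the trimmed mean of M values (TMM) over the 16 libraries. Levels are compared for 1 gene at a time, because transcript lengths were not used here.

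**Figure D1:**
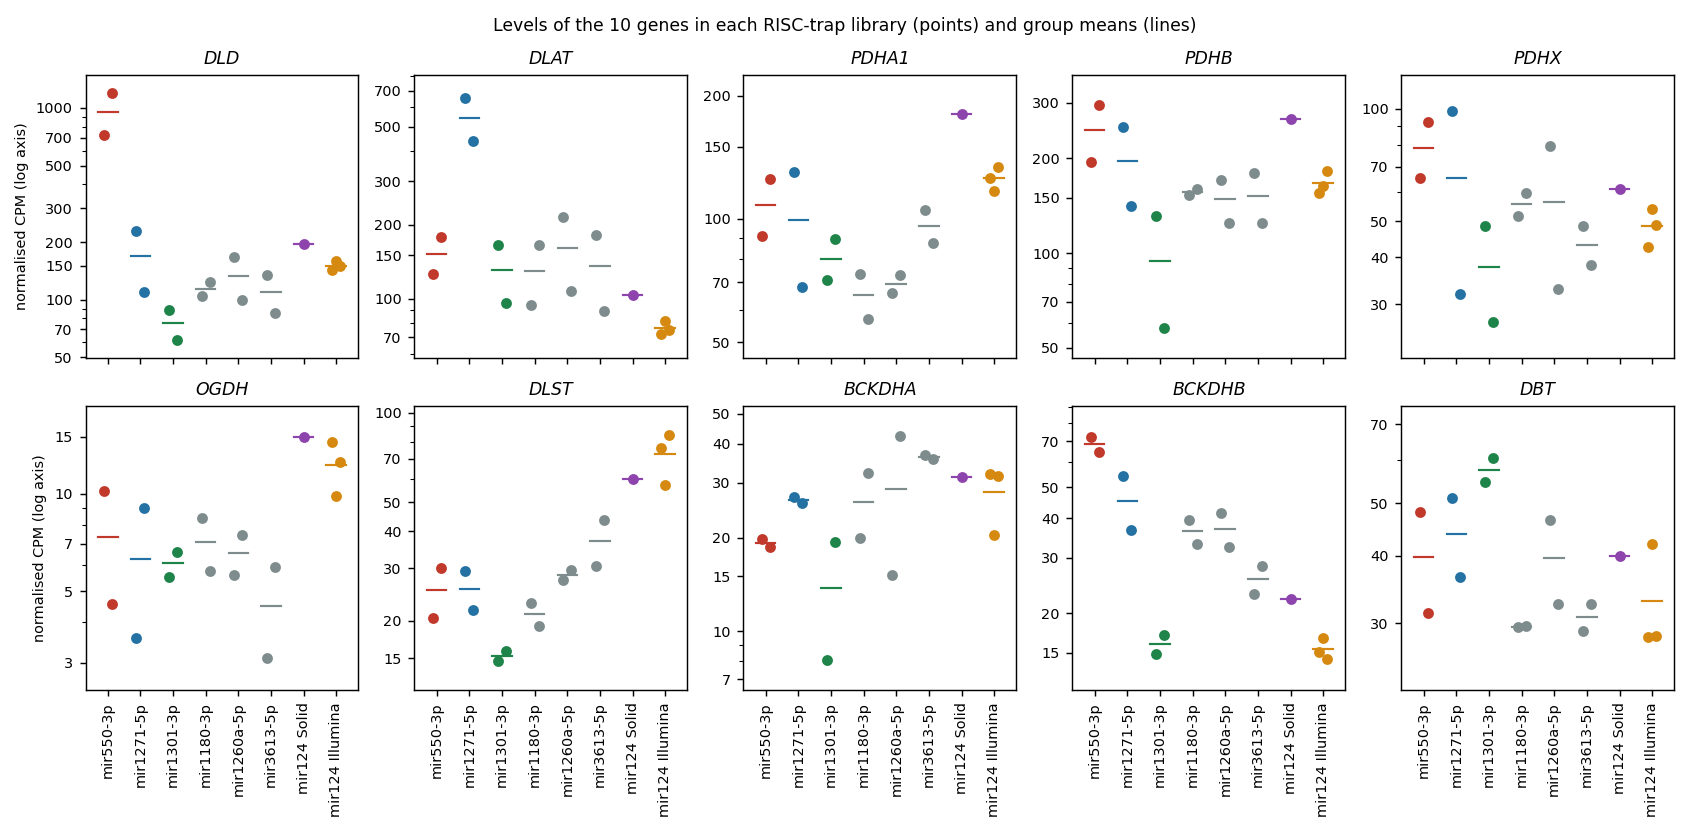
Normalised CPM (log axis) of the 10 genes in each of the 16 libraries, by miRNA; each point is a library and each line a group mean. DLD stands at 718.7 and 1195 CPM with mir550-3p, and DLAT at 651 and 437 CPM with mir1271-5p, above all other libraries of the same gene.

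DLD mRNA was recovered far more with mir550-3p than with any other miRNA. Its level was 718.7 CPM for mir550-3p replicate 1 and 1195 CPM for replicate 2, against a lowest, median and highest of 61.93, 107.1 and 227.5 CPM in the other 10 libraries. The 2 groups did not overlap, which was so upward for 5.17% of all genes in this comparison. The lower mir550-3p library was 3.16 times the highest of the others. The means were 956.8 ± 336.8 CPM (SD, n = 2) for mir550-3p and 120.1 ± 47.36 CPM (n = 10) for the others, a ratio of 7.96. The raw counts behind DLD ran from 692 to 17832 over the 16 libraries, so counting error is small beside these differences.

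The fitted log2 ratio of DLD for mir550-3p was 2.99, and over 19 alternative settings it lay between 2.65 and 3.27. Without replicate 2 of mir550-3p it was 2.65, and without replicate 1 it was 3.27. TNRC6A, whose counts do not separate the cell's own gene from the GW182 construct, took 1.453% and 1.49% of the counts with mir550-3p, against 0.6652% to 1.131% in the other 10 libraries. In the mir124-3p libraries, which hold another miRNA, TNRC6A took 5.113% (Solid) and 4.003%, 1.065% and 3.966% (Illumina replicates 1, 2 and 3). The part of TNRC6A in the DLD result was not tested.

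Below mir550-3p the order of the DLD means was mir124 Solid (196.3 CPM, 1 library), mir1271-5p (168.4 ± 83.61), mir124 Illumina (150.6 ± 8.33, n = 3) and mir1260a-5p (133.2 ± 46.71). Then came mir1180-3p (114.1 ± 12.87), mir3613-5p (109.8 ± 34.38) and mir1301-3p (75.23 ± 18.81). Only the step from mir550-3p to mir124 Solid separated neighbours in this order. The ranges of the next groups overlapped at each step. The 2 mir1301-3p libraries had 88.53 and 61.93 CPM. The fitted log2 ratio of DLD for mir1301-3p was -1.36, and it was -0.79 when mir550-3p was left out of the reference.

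**Figure D2:**
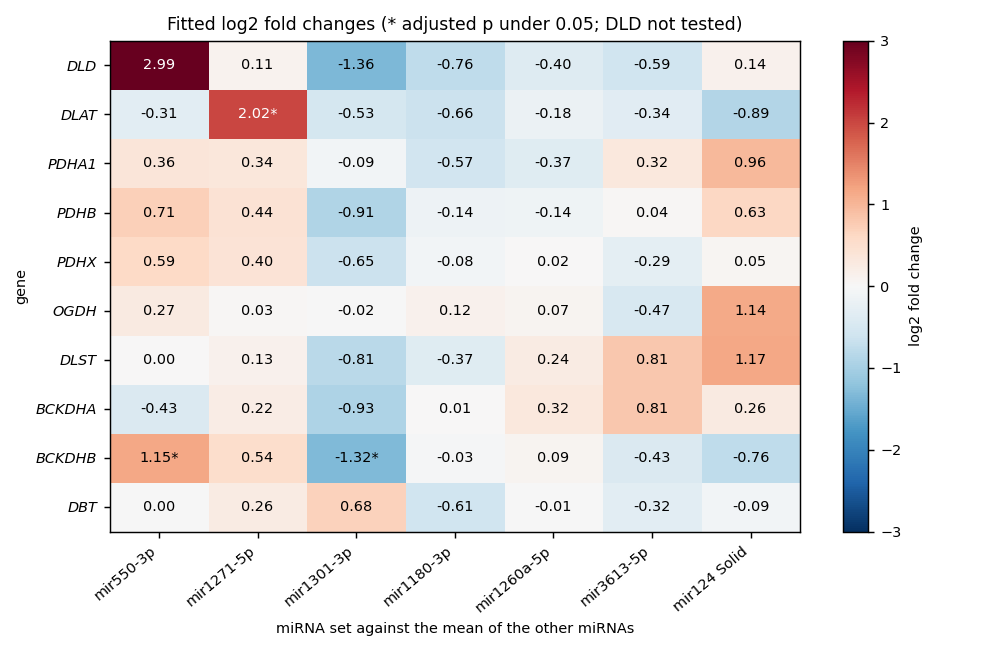
Fitted log2 fold changes of each gene (rows) for each miRNA (columns) against the mean of the other miRNAs; an asterisk marks an adjusted p under 0.05 by edgeR, and DLD was not tested. The DLD value of 2.99 for mir550-3p and the DLAT value of 2.02 for mir1271-5p are the 2 largest, and the 3 asterisks stand at DLAT and, in opposite directions, at BCKDHB.

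Among its partners 1 gene was called with mir550-3p. Of the 9 genes other than DLD, 1 was higher with mir550-3p by edgeR's quasi-likelihood test with Benjamini-Hochberg adjustment over all 17658 genes tested, beside 1.2% of all genes, and 0 were lower, beside 0.306%. At an unadjusted p under 0.05 the fit had 2898 genes for mir550-3p. The median log2 fold change of the 9 was 0.27, against -0.05 over all genes. It was 0.17 without mir1271-5p replicate 1 and 0.08 with the Solid library added to the reference. With upper-quartile scaling it was 0.11, and the median of all genes was then -0.17.

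The gene that rose was BCKDHB, the beta chain of the branched-chain E1. It had 72.47 and 64.93 CPM with mir550-3p, against 14.89, 32.77 and 54.27 CPM as the lowest, median and highest of the other 10 libraries. The groups did not overlap, which was so upward for 5.17% of all genes in this comparison. None of the 9 lay below all other libraries, as 2.54% of all genes did. The log2 fold change was 1.15 ± 0.27 (SE; adjusted p = 0.0404 by edgeR). This call sat close to the threshold. It ended without either library of mir550-3p (1.01 without replicate 1, 1.28 without replicate 2), without either library of mir1180-3p (1.19, 1.12) or mir3613-5p (1.13, 1.18), and without replicate 1 of mir1301-3p (1.12). It also ended with upper-quartile scaling (1.03) and with mir1301-3p left out of the reference (0.92, adjusted p = 0.146). The fits without a library of mir550-3p called far fewer of all genes.

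The remaining subunits differed by less than the test could call with mir550-3p. PDHB, the beta chain of the pyruvate E1, had 195.3 and 295.3 CPM, or 0.71 as a log2 fold change (adjusted p = 0.254). PDHX, the anchor of DLD, had 65.24 and 92.34 CPM and 0.59 (adjusted p = 0.44). DLAT stood at 125.8 and 177.9 CPM, inside the range of the other libraries (-0.31, adjusted p = 0.691). PDHA1, OGDH, DLST and DBT lay between -0.003 and 0.36, and BCKDHA, the alpha chain of the branched-chain E1, was at -0.43 (adjusted p = 0.625).

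DLAT was the subunit that rose with mir1271-5p. This E2 of pyruvate dehydrogenase carries the lipoyl arms that DLD reoxidises. It had 651 CPM in replicate 1 and 437 CPM in replicate 2, against 89.56, 145.3 and 215.4 CPM as the lowest, median and highest of the other 10 libraries. Both libraries lay above all others, as for 1.8% of all genes in this comparison (1.39% lay below, and none of the 9), and the lower was 2.03 times the highest of the rest. The means were 544 ± 151.3 CPM (SD, n = 2) and 141.8 ± 44.56 CPM (n = 10). The log2 fold change was 2.02 ± 0.30 (SE; adjusted p = 0.00196 by edgeR), and 1 of the 9 genes was called higher beside 0.606% of all genes. Without replicate 1 of mir1271-5p the value was 1.66 and the call ended (adjusted p = 0.0544). Without replicate 2 it was 2.31.

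The remaining 8 of the 9 genes were not called with mir1271-5p. Their log2 fold changes lay between 0.03 for OGDH and 0.54 for BCKDHB, all above 0, and the median of the 9 was 0.34 against 0.05 over all genes. That median turned to -0.05, with 5 of the 9 below 0, without mir1271-5p replicate 1, and was 0.76 without replicate 2. With upper-quartile scaling, which moved the median of all genes to -0.19 and that of the 9 to 0.06, BCKDHA, DLST, OGDH and DBT stood below 0, between -0.14 and -0.001. The 2 libraries also differed from each other, in depth too (17972321 counts in replicate 1 and 8004955 in replicate 2). PDHX had 98.96 CPM in replicate 1 and 31.87 CPM in replicate 2, and PDHA1, the alpha chain of the pyruvate E1, had 130 and 68.36 CPM. For DLD the values were 227.5 and 109.2 CPM. OGDH ran the other way, with 3.573 and 9.007 CPM.

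With mir1301-3p, BCKDHB was the subunit that fell. It had 14.89 and 17.09 CPM, against 23.01, 38.01 and 72.47 CPM as the lowest, median and highest of the other 10 libraries. The groups did not overlap, as downward for 7.52% of all genes in this comparison. The fold change on the log2 scale was -1.32 ± 0.32 (SE; adjusted p = 0.0192 by edgeR). BCKDHB was the 1 gene of the 9 called lower, beside 4.39% of all genes, and 0 were called higher, beside 11.5%. The call ended without replicate 1 of mir1301-3p (-1.17) and without replicate 2 (-1.50), in fits that called far fewer of all genes. It did not end with mir550-3p, the highest group for BCKDHB, left out of the reference (-1.14).

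Of the other subunits with mir1301-3p, PDHB had 131.4 and 57.99 CPM (-0.91, adjusted p = 0.0724). DLST, the E2 for 2-oxoglutarate, had 14.69 and 15.84 CPM, below all 10 others, whose lowest was 19.3 CPM (-0.81, adjusted p = 0.0843). BCKDHA had 8.113 and 19.33 CPM (-0.93, adjusted p = 0.125). DBT, the E2 of the branched-chain complex, went the other way. It had 54.74 and 60.49 CPM, above all 10 others, whose highest was 51.18 CPM, as did 13.6% of all genes, but was not called (0.68, adjusted p = 0.0968). With upper-quartile scaling, under which the median of all genes was 0.38, DBT was at 1.08 (adjusted p = 0.00794) and PDHA1 and OGDH moved to 0.31 and 0.35.

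The median of the 9 genes for mir1301-3p was -0.65, against -0.02 over all genes, and 8 of the 9 lay below 0, PDHA1 (-0.09) and OGDH (-0.02) only just. The median was -0.35 without mir1301-3p replicate 2 and -0.22, with 6 of the 9 below 0, with upper-quartile scaling. The mir1301-3p libraries were shallow, at 7612758 and 8533543 counts, as was mir1271-5p replicate 2, at 8004955. Their summed fibroblast markers (5 of 5 with counts, COL1A1, COL1A2, COL3A1, DCN and LUM) came to 47.76 and 141.5 CPM, against 6.383 to 19.63 CPM in the other 10 libraries. Neural markers (5 of 5 with counts) summed to 29.47 and 28.64 CPM, against 17.05 to 27.36 CPM, and blood markers (6 of 6) to 9.859 and 11.01 CPM, against 5.197 to 12.08 CPM. All 5 fibroblast markers were called higher by edgeR, from DCN (1.87, adjusted p = 0.0199) to COL3A1 (3.66, adjusted p = 0.000149). SNAP25 of the neural list (1.67, adjusted p = 0.0266 by edgeR) and PTPRC of the blood list (1.23, adjusted p = 0.043) were called higher too. The HEK 293 list summed to 1251 and 1403 CPM, against 1378 to 2223 CPM. The part of depth and of these markers in the values with mir1301-3p was not tested.

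With mir1180-3p, mir1260a-5p and mir3613-5p no gene of the 9 was called in either direction by edgeR, beside 2.07% (1.92% higher, 0.153% lower), 0.215% and 0.0906% of all genes, or by DESeq2. None lay above all other libraries with mir1180-3p or mir1260a-5p (3.73% and 1.08% of all genes), and none below with these or mir3613-5p (1.34%, 0.527% and 2.8%). At an unadjusted p under 0.05 the fits had 2424, 941 and 2481 genes. The range of the 9 was -0.66 to 0.12 on the log2 scale for mir1180-3p, -0.37 to 0.32 for mir1260a-5p and -0.47 to 0.81 for mir3613-5p. The highest values were those of BCKDHA (36.8 and 35.83 CPM) and DLST (30.59 and 43.71 CPM) with mir3613-5p, at adjusted p = 0.337 and adjusted p = 0.256. Both DLST libraries lay above the other 10, whose highest was 30.16 CPM, as for 2.04% of all genes, and the lower of them exceeded it by a factor of 1.01.

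For mir124-3p, the 2-oxoglutarate subunits and PDHA1 had the highest fitted log2 values of the 9 genes, though none was called in the Solid library. DLST had 59.87 CPM in the Solid library and 76.08, 57.05 and 84.31 CPM in the Illumina libraries, against 14.69, 25.24 and 43.71 CPM as the lowest, median and highest of the 12 libraries of the other miRNAs. OGDH, the E1 of that complex, had 14.91 CPM in the Solid library and 14.45, 9.838 and 12.5 CPM in the Illumina libraries, against 3.101, 5.837 and 10.17 CPM. PDHA1 had 180.2 CPM in the Solid library and 126.1, 117.2 and 134.3 CPM in the Illumina libraries, against 57.12, 80.5 and 130 CPM. The Solid library lay above all 12 others for these 3 genes, as for 20.8% of all genes, and below them for none of the 9, beside 11.1%. OGDH rests on few reads, between 45 and 271 counts per library.

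None of the 9 genes was called in the Solid library against the 6 other miRNAs, where 8.89% of all 18135 genes were called and 4376 had an unadjusted p under 0.05. DESeq2 called DLST alone. DLST came nearest by edgeR, at 1.17 ± 0.36 (SE) on the log2 scale (adjusted p = 0.0502). PDHA1 was at 0.96 (adjusted p = 0.11) and OGDH at 1.14 (adjusted p = 0.204). This group has 1 library, which was assumed to vary like the others. DLST was called with DESeq2 size factors in edgeR (1.23, adjusted p = 0.0325). It was also called without replicate 1 of mir1180-3p (1.26), replicate 1 or 2 of mir1271-5p (1.21 and 1.13) or replicate 2 of mir3613-5p (1.27), and PDHA1 was without replicate 1 of mir1271-5p (1.06).

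With the 3 Illumina libraries in place of the Solid library, DLST (1.56), OGDH (0.98) and PDHA1 (0.57) were called higher, and DLAT (-1.22) and BCKDHB (-1.17) lower, each with an adjusted p of at most 0.0173 by edgeR. DLAT had 71.77, 81.32 and 74.72 CPM in the Illumina libraries, below all 12 libraries of the other miRNAs, and 103.5 CPM in the Solid library. BCKDHB had 15.05, 16.67 and 14.3 CPM in the Illumina libraries and 22.12 CPM in the Solid library. In that fit 12307 of 17889 genes were called, 4370 higher and 7937 lower. All genes together had a median of -0.46 there on the log2 scale. Calls were thus common in both directions, and these calls do not set the subunits apart from other genes. How many of all genes lay below all 12 libraries, as DLAT did, was not counted for the Illumina libraries. MiRNA and platform cannot be told apart in that fit.

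Across the 12 libraries of the 6 miRNAs, DLD varied most, by a factor of 19.3 between its highest and lowest library, and DLAT next, by 7.27. The other 8 genes ranged between 2.09 for DBT and 5.22 for BCKDHA. The same library was not the highest for all: DLAT, PDHA1 and PDHX peaked in mir1271-5p replicate 1, DLD and PDHB in mir550-3p replicate 2, and OGDH and BCKDHB in mir550-3p replicate 1. Replicate 2 of mir1301-3p was lowest for DLD, PDHB and PDHX, and replicate 1 for DLST, BCKDHA and BCKDHB.

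The 5 genes whose log2 CPM followed DLD most closely over these 12 libraries were TMEM66 (now SARAF), ETAA1, DNAJA2, TTC27 and ZFR, with Pearson correlations of 0.966, 0.963, 0.957, 0.952 and 0.951 among 11588 genes of at least 5 CPM. SARAF regulates calcium entry through the plasma membrane, ETAA1 acts in the response to stalled replication, DNAJA2 is a co-chaperone of HSP70, and ZFR binds RNA. The points share libraries and depth, and the correlations are a description. The 5 were picked for following DLD over libraries that include mir550-3p, so their rise with mir550-3p comes largely from that choice. DNAJA2 was nearest to DLD in size, with 722.2 and 839.4 CPM with mir550-3p and 62.75 to 157.7 CPM in the other 10 libraries. The fitted log2 fold changes for mir550-3p were 2.84 for DNAJA2, 1.95 for TTC27, 1.71 for TMEM66, 1.57 for ZFR and 1.28 for ETAA1.

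**Figure D3:**
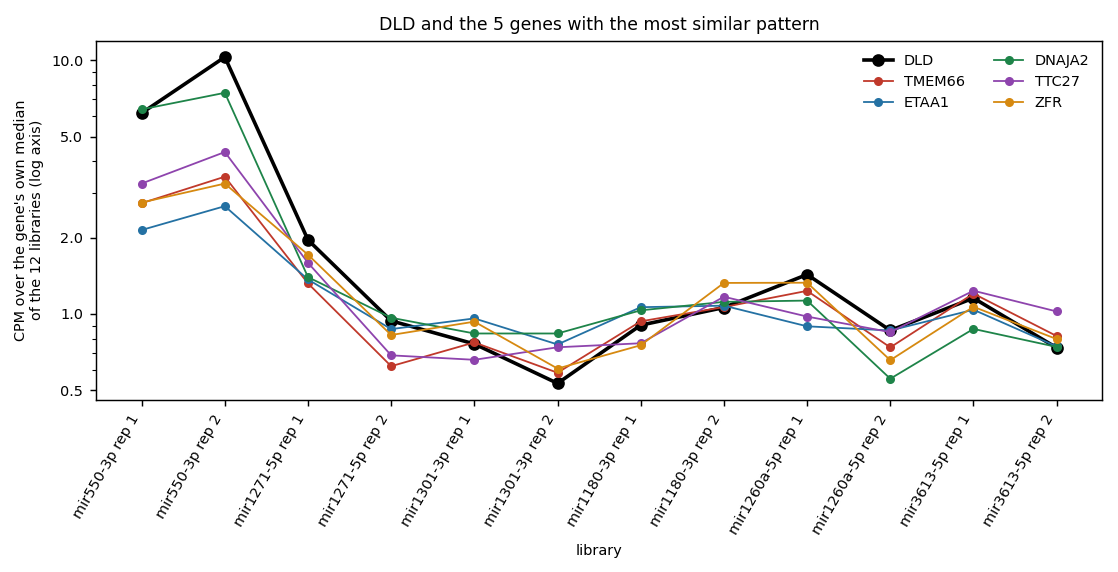
CPM of DLD and of the 5 genes most like it, each over the gene's own median of the 12 libraries (log axis), by library. All 6 genes are highest in the 2 mir550-3p libraries, which for the 5 comes largely from how they were picked. DNAJA2, with 722.2 and 839.4 CPM there, comes nearest to the rise of DLD.

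Around the complexes, 80 further genes were tested. They belong to lipoate synthesis, regulation, the TCA cycle, fuel supply, branched-chain breakdown and a list of DLD partners such as GCSH, DHTKD1 and MRPS36. With mir550-3p 0 of the 80 rose, beside 1.2% of all genes, and 1 fell, beside 0.306%. This was PKM2 (now PKM), the pyruvate kinase that makes pyruvate, with 36.83 CPM on average against 88.79 ± 33.85 CPM (-1.25, adjusted p = 0.0443 by edgeR), and its call held in 3 of the 12 fits that left out a library. The list medians with mir550-3p were 0.53 for branched-chain breakdown, 0.40 for lipoate, 0.34 for the TCA cycle and 0.30 for fuel supply. They were 0.07 for the DLD partners and -0.06 for the regulators. All genes had a median of -0.05, and the 9 subunits other than DLD one of 0.27. None of the 11 regulators was called in any comparison. These hold the kinases PDK1 to PDK4 and BCKDK, which switch the E1 enzymes off, and the phosphatases that switch them on.

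With mir1271-5p 1 of the 80 genes rose, beside 0.606% of all genes. OXSM, which extends the mitochondrial fatty acid from which lipoate is made, had 90.07 CPM in its higher library and averaged 88.16 CPM, against 20.08 ± 9.483 CPM (SD, n = 10) in the others. Its log2 fold change was 2.31 ± 0.34 (SE; adjusted p = 0.00196 by edgeR), and the call held in 12 of 12 fits that left out a library. It was 1 of 17 lipoate genes tested, whose median was 0.21, against 0.05 over all genes.

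With mir1301-3p 2 of the 80 genes rose, beside 11.5% of all genes, and 5 fell, beside 4.39%. The risers were PKM2 (1.23) and SDHB (1.21), a subunit of succinate dehydrogenase. The genes that fell were IDH3B (-1.59), a subunit of isocitrate dehydrogenase, OXSM (-1.61), SUCLG2 (-1.07), a subunit of succinyl-CoA ligase, ECHS1 (-1.06), an enoyl-CoA hydratase, and LIPT1 (-0.94), a lipoyltransferase. The adjusted p lay between 0.00769 and 0.0457. The reference held mir1271-5p and mir1180-3p, where OXSM and IDH3B were called higher, and mir550-3p, where PKM2 was called lower. OXSM had 4.206 and 15.1 CPM with mir1301-3p, against 9.483 CPM as the lowest of the other libraries. IDH3B had 23.83 and 35.88 CPM, against a lowest of 67.94 CPM. The part of the reference in these values was not tested. Each of these 7 calls ended without at least 1 of the mir1301-3p libraries. Such a fit leaves 1 library for this miRNA and called far fewer of all genes. Without replicate 1 and without replicate 2, PKM2 was at 1.17 and 1.26, SDHB at 1.07 and 1.32, LIPT1 at -0.81 and -1.11, and SUCLG2 at -1.28 and -0.90. The values of IDH3B (-1.29 and -2.01), ECHS1 (-0.59 and -1.80) and OXSM (-2.71 and -1.0) lay further apart. The calls of LIPT1, SUCLG2 and ECHS1 also ended in some fits that kept both mir1301-3p libraries. They held in 3, 5 and 7 of the 12 fits that left out a library. The TCA list had a median of -0.57 and the lipoate list of -0.52 on the log2 scale, against -0.02 over all genes.

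With mir1180-3p 2 of the 80 genes rose, both of the TCA list, beside 1.92% of all genes, and 1 of the lipoate list fell, beside 0.153%. SDHC, of succinate dehydrogenase, averaged 58.83 CPM against 16.73 ± 6.849 CPM (1.77, adjusted p = 0.000485 by edgeR). IDH3B averaged 195.7 CPM against 66.82 ± 20.25 CPM (1.51, adjusted p = 0.0011) but its call ended when mir1180-3p replicate 2 was left out (1.37). FDX1L, a mitochondrial ferredoxin, was lower (-1.86, adjusted p = 0.0304), and its call ended when any library of mir1180-3p (-2.52, -1.41) or mir550-3p (-1.85, -1.87) was left out. None of the 80 genes was called with mir1260a-5p or mir3613-5p.

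In the mir124 Solid library 10 of the 80 genes were called higher and 4 lower, beside 7.31% and 1.58% of all genes. With 1 library in this group, these calls take its spread from the other groups, and have no replicate check of their own. DHTKD1, the E1 for 2-oxoadipate that also works with DLD, had 182 CPM against 53.48 ± 13.39 CPM (SD, n = 12) in the other libraries (1.69, adjusted p = 0.00233 by edgeR). MRPS36 (now KGD4), which ties DLD to the 2-oxoglutarate core, was lower at 33.46 CPM against 112.8 ± 23.36 CPM (-1.87, adjusted p = 0.0215). With the Illumina libraries these 2 genes stood at 1.85 and -1.64. GCSH, the lipoyl protein of the glycine cleavage system, was at -1.75 in the Solid library and at 3.28 in the Illumina libraries.

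Of the branched-chain list, BCAT2 (1.82), HSD17B10 (1.51) and IVD (1.29) were called higher in the mir124 Solid library. BCAT2 is the mitochondrial transaminase that starts this pathway, and its cytosolic counterpart BCAT1 was lower (-1.75, adjusted p = 0.0306 by edgeR). IVD and BCAT1 were named after their values were seen. MECR (1.54), of mitochondrial fatty acid synthesis, PKM2 (1.42), SDHB (1.36) and SDHC (1.17) were called higher too, and SDHD lower (-1.69). The call of SDHC held in 5 of 12 fits that left out a library, that of GCSH in 7 and that of SDHD in 9. SDHC was at 3.27 and SDHD at -0.32 with the Illumina libraries. Near-identical copies of GCSH, SDHC and SDHD elsewhere in the genome can share their reads, which was not tested here. The values of these 3 genes are uncertain, also that of SDHC with mir1180-3p.

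**Figure D4:**
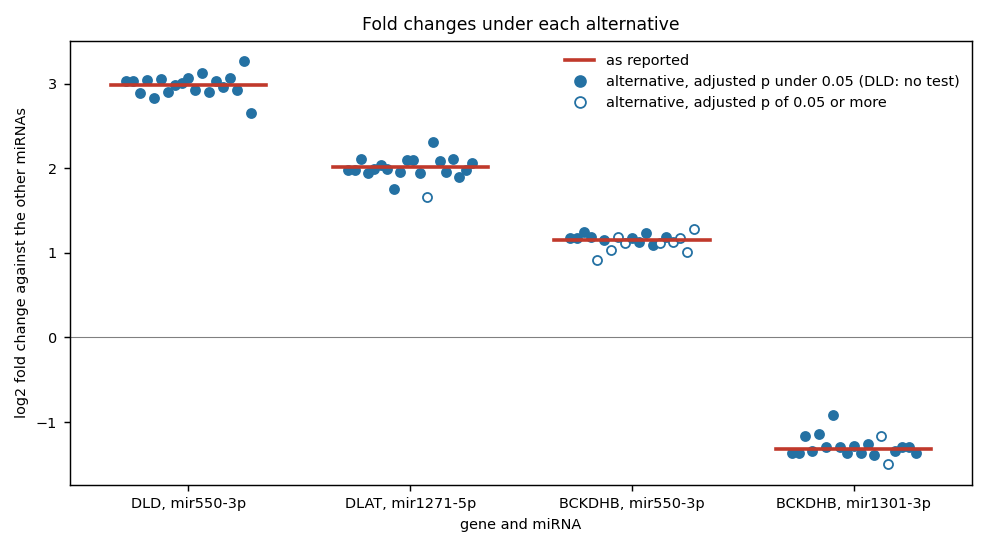
Log2 fold changes against the other miRNAs (vertical axis) of the 4 results named on the horizontal axis, with the reported value as a line and each alternative setting as a point, open where the adjusted p was 0.05 or more; DLD was not tested. DLD stays between 2.65 and 3.27 with mir550-3p, DLAT between 1.66 and 2.31 with mir1271-5p, and BCKDHB between 0.92 and 1.28 with mir550-3p and between -1.50 and -0.92 with mir1301-3p.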

How the data were processed

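RISC-trap pulldowns from HEK 293 cells were sequenced in 16 libraries. The authors deposited a table of raw read counts per RefSeq mRNA entry, with no normalization. Per the submitters' processing notes, TopHat2 and build hg19 were used, while the counting tool, its strand setting and how multiply matching reads were treated remain unstated. The 10 genes and the gene lists around them were chosen with earlier results of these data known.

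Counts were tested with edgeR 4.0.16 (quasi-likelihood, robust, TMM, filterByExpr) in R 4.3.3. Each of the 6 miRNAs was compared with the average of 5 others in a fit of 12 libraries (17658 genes), and the mir124 Solid library against the 6 in a fit of 13 (18135 genes). P-values were adjusted by Benjamini-Hochberg over all genes, with a threshold of 0.05. The reference is thus other miRNAs, not an untreated control. Library totals ran from 7612758 to 26527365 counts, and the common biological coefficient of variation was 0.35. The sequencer of the 12 libraries is not stated, so platform was not tested there. The fit was tested on simulated data. Named pathway genes are up to 3 called genes of each list and comparison, smallest adjusted p first; some are not reported here. Deviations of same-numbered libraries of different miRNAs correlated at -0.142 to 0.365 over 15 pairs of groups (6 above 0.1). Some thus varied together, but they share only a number, so the main fit did not pair them. Alternatives were DESeq2 1.42.0, other scalings, no filter, the replicate number as a block, other references and each library left out.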

Additional observations from a re-analysis of the deposited data

How the results depend on the processing

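The DLD value for mir550-3p kept its direction in all 19 alternatives, DLAT for mir1271-5p lost its call in 1 of 20, and BCKDHB lost its call in 9 of 19 for mir550-3p and 2 of 19 for mir1301-3p. OGDH, at 45 to 271 counts, has the fewest reads of the 10 genes. With DESeq2 the genes called numbered 691 for mir1180-3p (366 as reported), 64 for mir1260a-5p (38), 2659 for mir124 Solid (1613), 863 for mir550-3p (266) and 135 for mir3613-5p (16). With upper-quartile scaling they numbered 50 for mir1271-5p (107), 4438 for mir1301-3p (2815) and 9 for mir3613-5p. The split for mir1301-3p was then 4216 higher and 222 lower, against 2039 and 776 as reported and 1338 and 1663 by DESeq2, and for mir124 Solid 997 and 664, against 1326 and 287. With the Solid library added to the reference mir3613-5p had 28. Chosen after seeing the data, leaving mir550-3p out of the reference gave 1815 for mir1301-3p, and leaving mir1301-3p out gave 117 for mir550-3p. The Illumina libraries in place of the Solid library gave 12307, and GCSH turned to 3.28 there. The causes were not tested.

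Leaving out 1 library at a time gave 170 to 438 genes for mir1180-3p, 19 to 50 for mir1260a-5p, 35 to 174 for mir1271-5p, 114 to 4509 for mir1301-3p, 1257 to 1945 for mir124 Solid, 9 to 616 for mir550-3p and 8 to 39 for mir3613-5p. Of the 9 genes other than DLD, these fits called 0 to 1 for mir1271-5p and for mir550-3p, and 0 to 2 for mir1301-3p and for mir124 Solid. For mir550-3p 0 were called with upper-quartile scaling or without mir1301-3p in the reference. For mir124 Solid 1 was called by DESeq2 and with its size factors in edgeR, and 5 with the Illumina libraries. For mir1301-3p 2 were called by DESeq2 and with upper-quartile scaling, and 3 with the Solid library added.

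With the replicate number as a block, 2 of the 9 were called for mir1301-3p, PDHB (-0.96, adjusted p = 0.0417 by edgeR) beside BCKDHB (-1.30), and DLD stood at 3.06 for mir550-3p. The block gave 408 genes for mir1180-3p, 3738 for mir1301-3p and 313 for mir550-3p. The libraries share only a number, so this fit does not stand for pairing.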
